A study of Gossypium hirsutum with 6 samples.

Results

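The gene models described here were expressed at similar levels in young leaves and in ovules and were low in fibers of allotetraploid cotton. They were chosen from a table of 77357 gene models by their expression values. A model was a candidate when all 4 leaf and ovule libraries lay at or above 5 FPKM (mapped fragments scaled to the length of the gene model and the size of the library, so that a value is a share of its library) and the ratio of the leaf mean to the ovule mean lay between 0.5 and 2. Of 12181 models that met the minimum, 6516 also met the ratio. Candidates were ranked by a score, the lower of the leaf and ovule means plus 1 divided by the fiber mean plus 1, and the 200 highest were taken. These 200 models, 3.07% of the candidates, are called leaf-ovule models. The last model inside, Gorai.006G051400, had a score of 9.68, and the first outside, Cotton_A_01258, a score of 9.62. Gorai.006G051400 was at 14.9 and 13.5 FPKM in leaf, 9.29 and 8.07 FPKM in ovule and 0 in both fiber libraries. Cotton_A_01258 was at 99.3 and 99.2 FPKM in leaf, 58.7 and 67.2 FPKM in ovule and 6.68 and 4.62 FPKM in fiber. Scores fell gradually across this limit, from 13.3 at rank 100 to 6.56 at rank 400. The values of all 3 tissues entered the choice, so the levels and calls below describe the chosen models, and no call supports the choice.

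The libraries came from TM-1, an accession of *Gossypium hirsutum*, and measured mRNA in 3 tissues with 2 libraries each. Leaves were labelled as young. The ovules dated from the day of flowering, 0 DPA (days post anthesis), and the fibers from 14 DPA. No treatment or transgene was given for any group. Each cotton fiber is a single cell that grows out from the surface layer of the ovule and elongates for weeks after flowering, before its wall is thickened with cellulose. Leaf and ovule, in contrast, are organs of many cell types, among which are dividing and photosynthetic cells in young leaves and the tissues that will form the seed coat, embryo and endosperm in ovules. In bulk tissue, fewer cells that express a gene and less RNA of that gene per cell cannot be told apart.

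The sources pair none of the identifiers with gene names, and the RefSeq gene table of cotton held 0 of them. The models are therefore given by identifier, without function, position or sequence, and no pathway list or tissue marker could be read. The identifiers start with Cotton_A or Gorai, and the study's own text uses neither kind. Summed FPKM per library lay between 927473 and 1014584. Sequencing depth relative to fiber replicate 1, read from the steps between low values, lay between 0.704 and 0.964 in the other 5 libraries. The fiber libraries were the deepest of the 6.

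Leaf-ovule models were well expressed in both tissues that defined them. Their median was 31.6 and 32.4 FPKM in the leaf libraries and 33.8 and 32.4 FPKM in the ovule libraries, against 13.8 to 16.3 FPKM for all candidates in the same libraries. In the fiber libraries their median was 0.883 and 0.778 FPKM, where candidates had 13.4 and 13.5 FPKM. No leaf or ovule value fell below 7.66 FPKM and no fiber value rose above 40.5 FPKM. Summed over the 200 models, expression made up 1.29% ± 0.0250 of leaf FPKM, 1.30% ± 0.0183 of ovule FPKM and 0.0393% ± 0.00536 of fiber FPKM (SD, n = 2). In 0 of the 200 models did the lowest leaf or ovule value reach down to the highest fiber value. The ranking by score leaves little room for such overlap, so nothing is read from this count. The smallest gap was in Cotton_A_19962, whose lowest leaf or ovule value was 2.84 times its highest fiber value. The median gap was 23.5 times over the 183 models with any fiber value above 0.

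**Figure D1:**
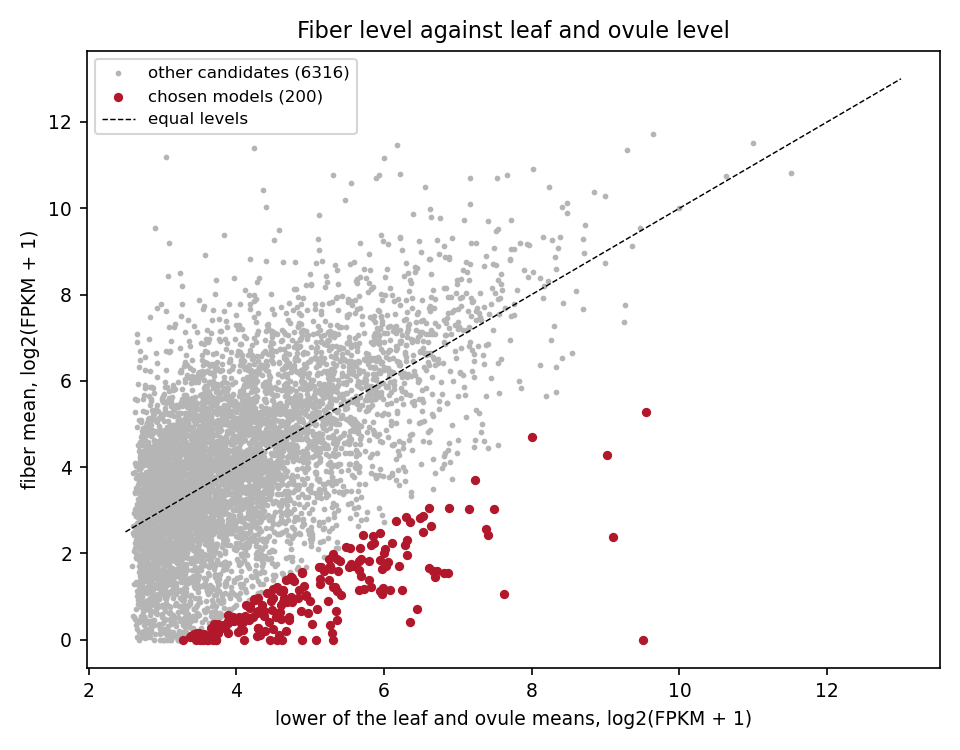
Fiber mean (y axis) against the lower of the leaf and ovule means (x axis), both as log2(FPKM + 1), for the 200 leaf-ovule models in red and the 6316 other candidates in grey, with each point 1 gene model. The red points form the lower edge of the cloud, with a median fiber mean of 0.947 FPKM, whereas the grey cloud lies around the dashed line of equal levels.

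Expression differed widely among the models themselves. The mean over the 4 leaf and ovule libraries ran from 9.89 to 925.8 FPKM with a median of 32.8, and 25 models lay at or above 100 FPKM. The 10 highest models held 35.2% of the summed leaf and ovule expression of the set. In fiber, 104 models had a mean under 1 FPKM, 82 lay from 1 to under 5 FPKM and 14 were at or above 5 FPKM. The 5 highest held 26.6% of the set's fiber expression.

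The models that led the ranking among those with at least 100 reads were far lower in fiber than in leaf and ovule. Gorai.002G083700, second in rank, was at 778.7 and 808.4 FPKM in leaf, 558.8 and 535.4 FPKM in ovule, and 6.13 and 2.25 FPKM in fiber. Its leaf values exceeded its ovule values, and both fiber values lay far below, although as a ratio they differed from each other by more than the replicates of the other tissues. The ovule mean was 131 times the fiber mean. Cotton_A_14871 followed with 314.9 and 314.0 FPKM in leaf, 187.8 and 204.0 FPKM in ovule and 1.08 and 1.12 FPKM in fiber. Here the fiber replicates were close, and the ovule mean was 178 times the fiber mean. Cotton_A_02390 had the opposite order of leaf and ovule, with 81.9 and 79.2 FPKM in leaf, 132.1 and 132.7 FPKM in ovule, and 0.263 and 0.410 FPKM in fiber. Its leaf mean was 239 times its fiber mean. That ratio rests on 5 fiber reads, and reads pooled by tissue gave 240.2 with an exact binomial 95% interval of 102.5 to 741.6. For Gorai.002G083700, with 134 fiber reads, the interval was 109.4 to 154.9. Such intervals treat the pooled reads as independent, so they leave out the spread between replicates and PCR copies counted as separate reads. In Gorai.002G083700 the fiber reads were 99 in replicate 1 and 35 in replicate 2, a spread that its interval does not cover.

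**Figure D2:**
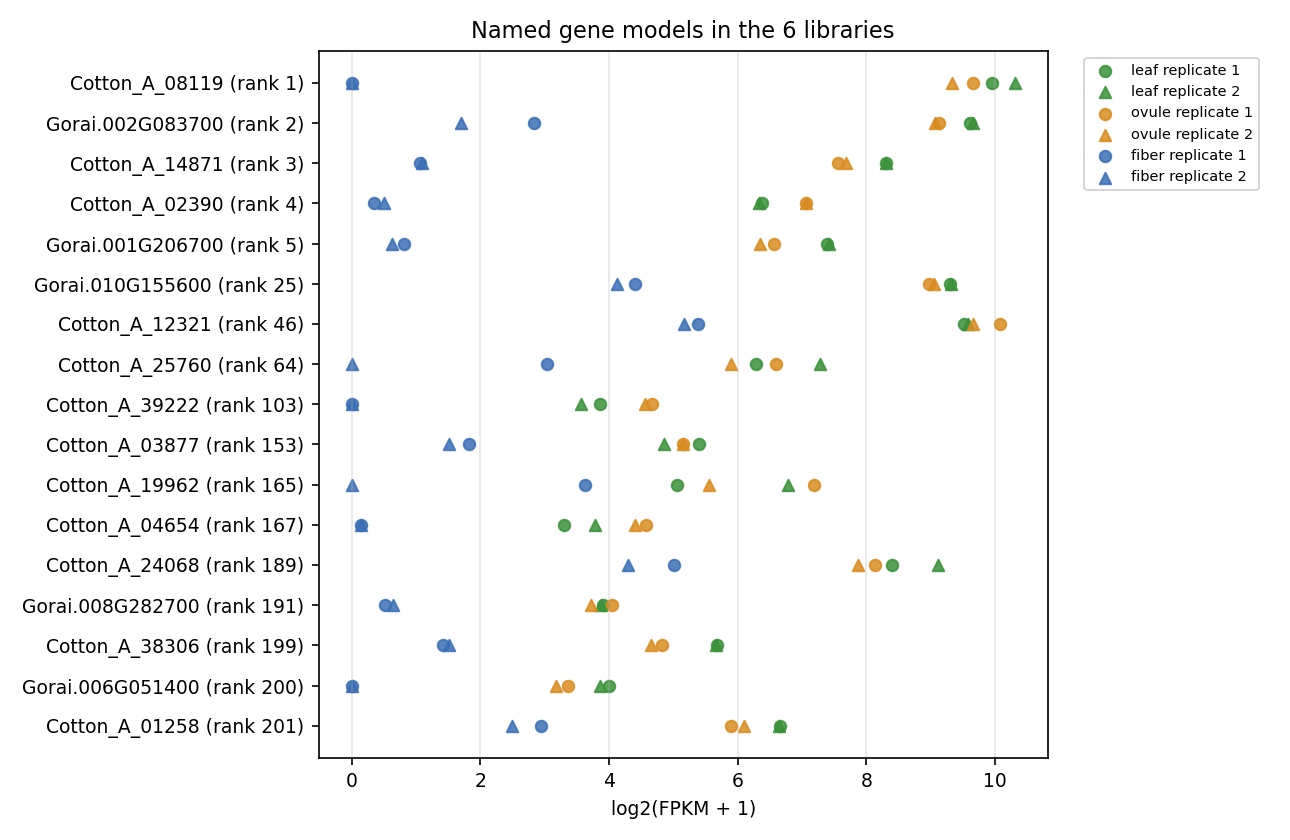
Expression of 17 gene models in the 6 libraries, as log2(FPKM + 1) on the x axis, with 1 row per model in rank order (the last row is the first model outside the set); color gives the tissue and shape the replicate. Fiber points lie left of all leaf and ovule points in every row, while leaf and ovule points change order between rows. The ranking by score favors this gap.

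Ratios of mean FPKM to fiber were given only where both fiber libraries lay above 0, and ratios of pooled reads also where 1 was at 0. Both lay above 0 in 153 of the 200 models. Among them the lower of the leaf and ovule means was 10.2 to 266.6 times the fiber mean, with a median of 28.4 and a middle range of 19.1 to 45.4. Over the 6415 candidates above 0 in both fiber libraries the median was 0.994. The largest ratio belonged to Cotton_A_14351, singled out after its values were seen. It was at 34.4 and 36.3 FPKM in leaf, 18.2 and 18.6 FPKM in ovule and 0.0679 and 0.0705 FPKM in fiber. Each fiber value stood for 1 read, and pooled reads gave a ratio of 266.4 with an interval of 73.3 to 2207.

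The models highest in fiber were also abundant in leaf and ovule. Cotton_A_12321 had the highest fiber level of the set, at 40.5 and 34.8 FPKM. In leaf it reached 730.1 and 762.7 FPKM and in ovule 1078 and 803.3 FPKM, so that its leaf mean was 19.8 times the fiber mean. Cotton_A_24068 was second in fiber, with 31.3 and 18.6 FPKM, against 334.9 and 551.3 FPKM in leaf and 278.4 and 232.8 FPKM in ovule. Its ratio of 10.2 was the lowest of the 153, and its leaf replicates differed more from each other than its ovule replicates did. Gorai.010G155600 was the third highest in fiber with 20.2 and 16.4 FPKM, and held 628.9 and 634.8 FPKM in leaf and 503.4 and 529.9 FPKM in ovule. In fiber all 3 lay above the median of the candidates' fiber means, 13.5 FPKM.

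At the other end, 17 models were listed at 0 in both fiber libraries and 30 in 1 of them. Only 30 of the 6516 candidates were at 0 in both. A listed 0 carries as much information as the reads a model could have received. Whole reads could be recovered from the steps between FPKM values for 158 of the 200 models, and for 16 of the 17. The limit that a count of 0 allows, 3 reads over both fiber libraries, would correspond to 56.1 FPKM in Cotton_A_08119, since 1 read of this model is worth 36.7 FPKM in fiber replicate 1. This first-ranked model was at 991.0 and 1262 FPKM in leaf and 804.8 and 645.9 FPKM in ovule, from 19, 25, 19 and 13 reads. Its score was 726.4, but its measured ovule mean was only 12.9 times that limit. For Gorai.004G279700, with 7 reads in all, the lower of the leaf and ovule means was 1.36 times the limit. For Cotton_A_11553, with 12 reads, it was 1.95 times. This ratio was over 10 for 9 of the 16 models. It leaves out the counting error of the leaf and ovule reads, so where those are few it is no lower bound.

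Of the models at 0 in both fiber libraries, 6 had at least 100 reads in the other libraries and are named for this reason after their values were seen. Gorai.005G244000 held 40.0 and 38.0 FPKM in leaf and 28.6 and 29.0 FPKM in ovule from 424 reads. Its ovule mean was 78.3 times the limit. Cotton_A_10555 held 10.52 and 10.97 FPKM in leaf and 15.1 and 15.0 FPKM in ovule from 481 reads. Its leaf mean was 85.4 times the limit, the highest such ratio of the set. Smaller ratios to the limit were 74.3 for Gorai.001G177500, 61.3 for Gorai.009G339000, 50.8 for Cotton_A_02689 and 29.3 for Cotton_A_39222. In each of these the replicates of leaf and of ovule were close to each other compared with the distance to 0.

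**Figure D3:**
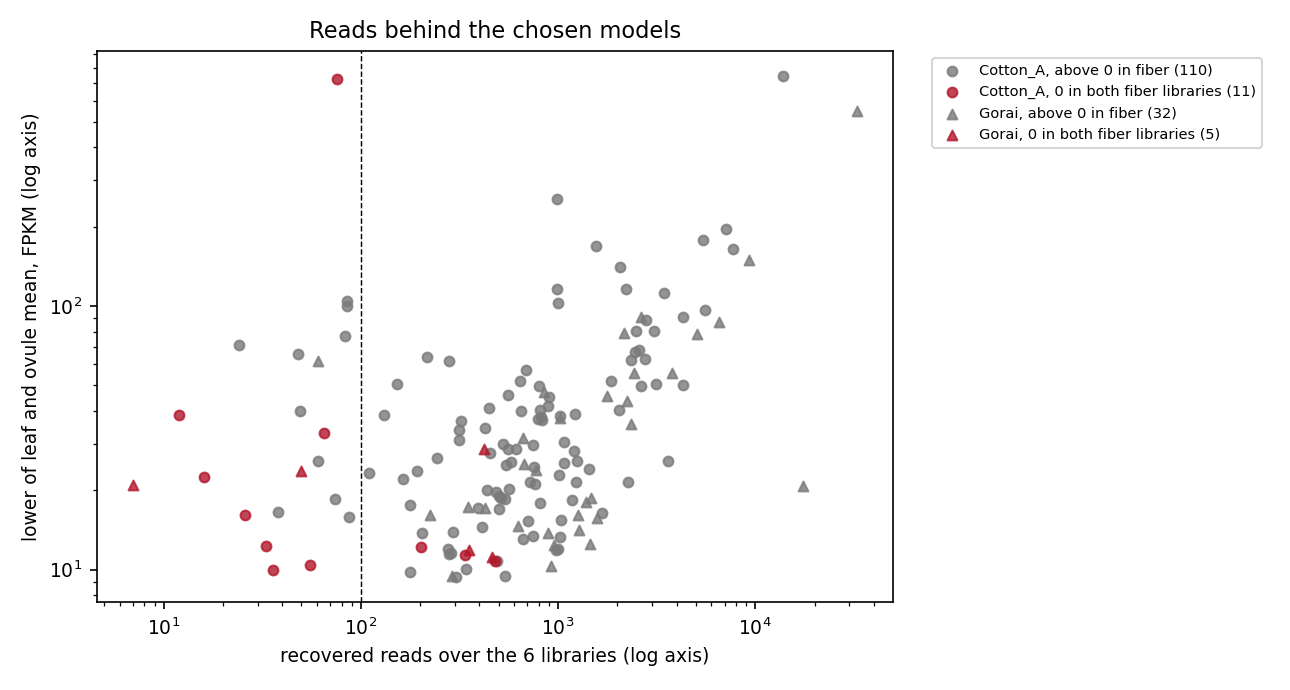
Recovered reads summed over the 6 libraries (x axis, log) against the lower of the leaf and ovule means in FPKM (y axis, log) for the 158 leaf-ovule models with recovered reads; red marks models at 0 in both fiber libraries and shape the kind of identifier. The dashed line is at 100 reads, with 21 models to its left, 10 of them at 0 in both fiber libraries.

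Read support varied more among the models than the FPKM values show. Over the 6 libraries the 158 models had 7 to 32712 recovered reads with a median of 712.5. These are the smallest whole numbers that explain the values, and true counts could be a multiple of them. A wrong match could also give too many reads. Gorai.006G182300, with 17467 reads at 0.00508 FPKM per read, lay just above the minimum of 0.005 for keeping a model. It is included in the counts and sums of reads. Of them 21 (13.3%) had under 100 reads, against 157 of 4312 candidates with recovered reads (3.64%). These few-read models sat high in the ranking, with 5 among the first 20 and 10 among the first 50. In leaf and ovule, replicates of few-read models were also less alike, with a median SD of log2(FPKM + 1) of 0.324 in leaf and 0.316 in ovule, against 0.0643 and 0.0715 in models with at least 100 reads. In fiber, where 10 of the 21 few-read models were at 0 in both libraries, the order was opposite, with 0.0273 against 0.134. Of 18 models whose replicates had a pooled SD over 0.5 on this scale, 13 had under 100 reads.

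The replicates differed most in a pair of models with few reads. Cotton_A_19962 was at 32.3 and 109.4 FPKM in leaf, 144.2 and 46.1 FPKM in ovule and 11.4 and 0 FPKM in fiber, from 24 reads in total and a single one in fiber. Leaf and ovule values overlapped, and the order of the replicates was opposite in these tissues. Pooled reads gave a ratio of leaf to fiber of 12.3 with a 95% interval of 1.71 to 540.8. Cotton_A_25760 was at 76.9 and 153.8 FPKM in leaf, 95.8 and 58.6 FPKM in ovule and 7.23 and 0 FPKM in fiber, from 83 reads, 2 of them in fiber. The ratio of pooled ovule to fiber reads was 21.4 with an interval of 5.50 to 183.5.

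Fiber reads were few even in well-supported models. Over both fiber libraries the 158 models had a median of 9.5 reads. Of these models 16 had 0 reads, 35 had 1 to 3, 28 had 4 to 9 and 79 had 10 or more, up to 437. Summed over these models there were 116784 reads in leaf, 128434 in ovule and 4451 in fiber.

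Leaf and ovule levels were balanced across the set as a whole in the values as deposited. Under other scalings of the libraries, given below, the set leaned to leaf. As deposited, the leaf mean was higher in 101 models and the ovule mean in 99, and the median ratio of leaf to ovule was 1.005. Candidates leaned to the ovule, with 34.2% higher in leaf and a median ratio of 0.832. The ratio is part of the choice, so this difference from the candidates was not tested. By kind of identifier, 47.9% of the Cotton_A and 54.4% of the Gorai models in the set were higher in leaf, against 35.4% and 32.9% of the candidates. Both leaf values lay above both ovule values in 79 models, the reverse held in 81, and the values overlapped in 40. Among candidates these patterns made up 26.2%, 56.1% and 17.6%.

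**Figure D4:**
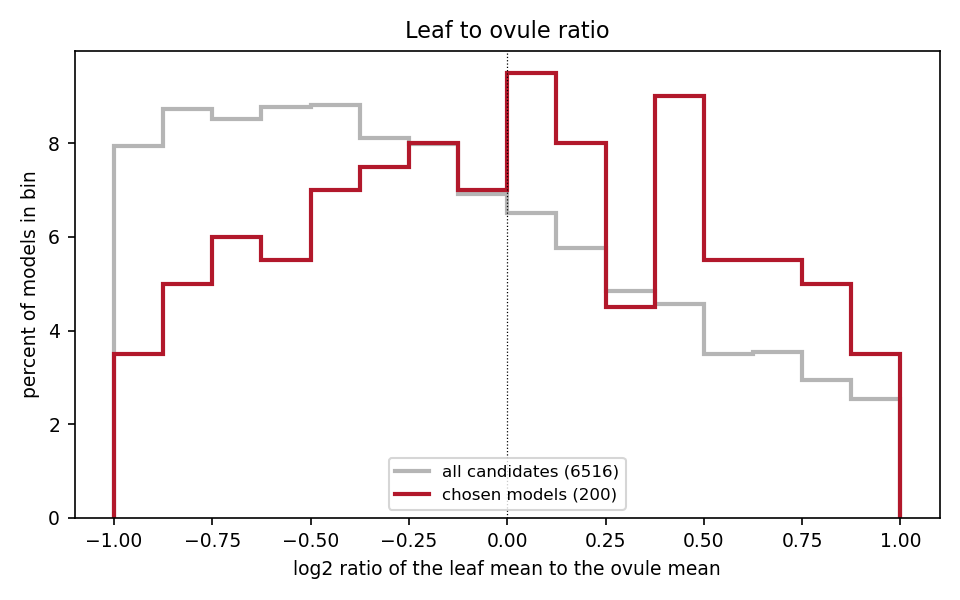
Distribution of the log2 ratio of the leaf mean to the ovule mean (x axis) as the percent of models in each bin (y axis), for the 200 leaf-ovule models in red and all 6516 candidates in grey. With values as deposited, the red line is spread to both sides of 0, with a median ratio of 1.005. The grey line is higher on the ovule side, with a median ratio of 0.832.

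Models at the edges of the window differed between leaf and ovule by more than their replicates. Gorai.001G206700 had the highest ratio, 1.94, with 166.6 and 170.2 FPKM in leaf, 93.1 and 80.2 FPKM in ovule and 0.756 and 0.543 FPKM in fiber. Next came Cotton_A_38306 at 49.9 and 49.9 FPKM in leaf, 27.4 and 24.2 FPKM in ovule and 1.67 and 1.83 FPKM in fiber. In both, leaf lay above ovule without overlap. Cotton_A_04654 had the lowest ratio, 0.502, with 8.87 and 12.7 FPKM in leaf and 22.8 and 20.1 FPKM in ovule, and its fiber values of 0.103 and 0.106 FPKM came from 1 read each. Pooled reads gave a ratio of leaf to fiber of 103.5 with an interval of 28.2 to 862.5. Cotton_A_39222, listed at 0 in both fiber libraries, had the next lowest ratio, 0.519, with 13.5 and 10.9 FPKM in leaf and 24.5 and 22.5 FPKM in ovule. At the centre, Cotton_A_03877 was at 41.2 and 27.9 FPKM in leaf, 34.6 and 34.4 FPKM in ovule and 2.54 and 1.85 FPKM in fiber. Gorai.008G282700 was at 13.9 and 13.6 FPKM in leaf, 15.4 and 12.2 FPKM in ovule and 0.437 and 0.554 FPKM in fiber. Leaf and ovule values overlapped in both of these models.

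For the contrasts between tissues, all 42214 models with a mean of at least 0.5 FPKM were fitted with limma after taking log2(FPKM + 1). A call needed more than 2-fold and a Benjamini-Hochberg adjusted p under 0.01. All 200 leaf-ovule models were in the fit. In the comparison of fiber with ovule (FO) 199 of them were called lower in fiber, where 33.5% of all tested models were. In the comparison of fiber with leaf (FL) 199 were called lower, where 25.3% of all tested models were. Calls of a higher level in fiber numbered 0 in both, where 16.8% of all tested models were higher in FO and 25.6% in FL. The choice used both contrasts, and nothing is read from these counts. Cotton_A_19962 was the exception in both. The median log2 change was -4.05 in FO and -4.01 in FL, against -0.42 and 0.04 for all tested models, and the changes ran from -9.50 to -3.27 in FO and from -10.13 to -3.29 in FL. On this scale the change of low values is understated, and FO and FL share the fiber libraries.

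Between ovule and leaf (OL), 0 of the 200 models were called by limma at over 2-fold, where 15.7% of all tested models were lower and 31.1% higher in ovule. The window on the ratio leaves little room for such a call, with changes of -0.96 to 1.02 on the log2 scale. Without the fold threshold, limma gave an adjusted p under 0.01 for 66 models, of which 31 were higher in leaf and 35 in ovule. Of all tested models 20.6% were higher in leaf and 45.2% in ovule by that rule. An unadjusted p under 0.05 from limma was found for 105 of the 200 (52.5%), against 64.9% of the candidates and 78.1% of all tested models. This balance rested on the scaling between libraries. The median OL change of the leaf-ovule models was -0.01 as deposited, where that of all tested models was 0.48. After median-of-ratios scaling it was -0.66, with all tested models at 0.00, and 47 leaf-ovule models (23.5%) were then called lower in ovule, where 22.3% of all tested models were. Quantile normalization gave -0.35, with all tested models at 0.12, and 21 (10.5%) were called lower in ovule, where 20% of all tested models were.

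Replicates of fiber did not contribute equally. Of the 183 models above 0 in fiber, 110 were higher in fiber replicate 1 and 73 in replicate 2 (60.1% in replicate 1), and the summed fiber FPKM of the set was 1.27 times as high in replicate 1. Among all candidates 48.3% were higher in replicate 1 and the ratio of sums was 1.03. Values were close to even for the 1380 candidates outside the set with a fiber mean under 5 FPKM, with 49.96% and a ratio of 1.005. Without the 5 models highest in fiber the ratio of the set remained 1.27. The median SD of log2(FPKM + 1) between replicates of the set was 0.127 in fiber, against 0.0680 in leaf and 0.0720 in ovule. Over all candidates it was 0.0682 in fiber, 0.0778 in leaf and 0.07425 in ovule. The cause of these differences was not tested.

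Cotton_A models were more frequent in the set than among candidates. They made up 121 of 200 models (60.5%) and 50.8% of the candidates, while the next 200 ranks had 57.0%. Without models worth over 1 FPKM per read, which are mostly Cotton_A, the shares were 57.8% of 180 and 49.6% of 6351. FPKM per read falls as the length of a gene model rises. Its median was 0.154 in the Cotton_A models of the set and 0.111 in Cotton_A candidates, and 0.0889 and 0.0693 in Gorai models of the set and Gorai candidates with recovered reads. All 121 Cotton_A models of the set gave whole reads, but only 37 of its 79 Gorai models did, so the Gorai values describe part of them. The share was 56% in the 200 highest models shared by ovule and fiber and 58% in those shared by leaf and fiber. None of these shares was tested, since the members were chosen by their values.

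The same rule was applied to the other pairs of tissues for comparison. Of 6516 candidates shared by leaf and ovule, 184 had a score over 10. Of 6353 candidates shared by ovule and fiber, 115 were as low in leaf by this measure, and of 5042 candidates shared by leaf and fiber, 20 were as low in ovule. The score at rank 200 was 9.68, 6.75 and 2.71 in this order. After median-of-ratios scaling the numbers over 10 were 162, 76 and 33, and after quantile normalization 138, 91 and 29. At a lower limit the order depended on the scaling. As deposited, a score over 2 was reached by 25.6% of the candidates shared by leaf and ovule. The share was 30.4% of those shared by ovule and fiber and 6.45% of those shared by leaf and fiber. In the same order, quantile normalization gave 20.1%, 21.2% and 10.5%. Median-of-ratios scaling gave 21.2%, 15.6% and 12.5%. As deposited, the highest score was 817.2 among candidates shared by ovule and fiber, above the 726.4 of the leaf-ovule models. After median-of-ratios scaling these highest scores were 740.5 and 74.3, and after quantile normalization 858.5 and 785.5. The difference between patterns was not tested.

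Models were also chosen again from 1 replicate of each tissue and read in the other, which that new choice had not used. The choice of the leaf-ovule models used all 6 libraries, so these lists give no independent support for them. The 200 models chosen on replicate 1 had a median score of 13.02 there and 13.3 in replicate 2. In replicate 2, 191 of them had a score over 5, against 9.12% of the candidates chosen on replicate 1. The 200 chosen on replicate 2 had a median score of 14.1 there and 12.1 in replicate 1, with 187 over 5, against 8.44% of the candidates. Of these lists, 167 and 170 models were among the 200 chosen on both replicates, a choice that used the same values. In the other replicate the ratio of leaf to ovule stayed within 0.5 to 2 for 178 and 181 models of the lists. Scores at or below 1 in the other replicate occurred in 3 and 6 models, where the median score of all candidates was 0.996 and 0.968. The lowest were 1 for Cotton_A_10293, with 3 reads, and 0.0265 for Cotton_A_15732, with 9 reads. With 1 library per tissue on each side these values carry no test.

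The choice changed most with median-of-ratios scaling, the pseudocount and a narrower ratio window. With a pseudocount of 0.1 in the score, 127 of the 200 models were chosen again, and with 10 it was 121. Median-of-ratios scaling kept 119, quantile normalization 150, and a narrower ratio window of 0.67 to 1.5 kept 135. Leaving out any single library kept 180 to 189. Median-of-ratios scaling kept 72 of the upper 100 ranks and 47 of the lower 100. Leaving out models worth over 1 FPKM per read kept 86 of the upper and 94 of the lower ranks. This setting and the narrower window only remove candidates, so the models lost are those that the setting itself excludes.

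**Figure D5:**
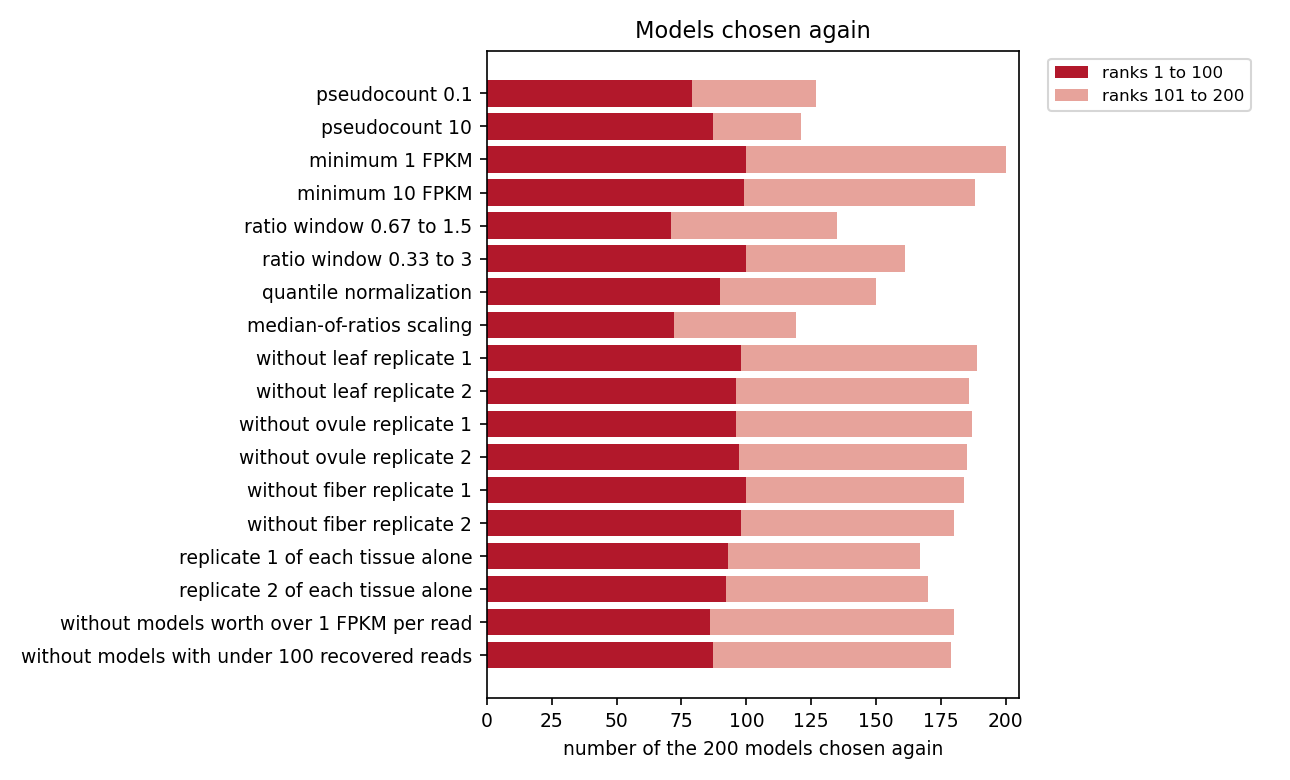
Number of the 200 leaf-ovule models chosen again (x axis) under 18 other settings of the rule (1 bar each), split into the upper (dark) and the lower (light) 100 ranks. The shortest bars are those of median-of-ratios scaling (119), a pseudocount of 10 (121) and a pseudocount of 0.1 (127). Settings that only remove candidates lose just the models they exclude.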

How the data were processed

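Strand-specific, single-end mRNA-seq libraries of leaf, ovule and fiber were used, with 2 biological replicates per tissue by the study's methods. The authors deposited 1 table of FPKM values with 1 column per library. The methods give Tophat for alignment to the TM-1 genome, a restriction to reads with 1 location, and Cufflinks for abundance. The submitters' processing notes add CASAVA 1.8, and versions of Tophat and Cufflinks were not stated. A model with a nearly identical homoeolog can lose reads by this filter, so values of single models are uncertain to that extent. Why the identifiers are not those of TM-1 genes was not resolved.

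The rule, the members and the named models were fixed with earlier results of these data known. Named were the first 3 models by rank, the first 3 above 0 in both fiber libraries, the first 3 with at least 100 recovered reads, the 3 highest in leaf and ovule, the 3 highest in fiber, the 2 lowest, 2 highest and 2 most central leaf to ovule ratios, the 2 with the largest replicate SD, and the last model inside and first outside the set. Log2(FPKM + 1) was fitted with limma 3.58.1 in R 4.3.3 in 1 model over 6 libraries, with a variance trend, robust fitting and Benjamini-Hochberg adjustment. The study's criteria (analysis of variance at P under 0.01, with more than 2-fold) were run per model on the same log scale as an alternative. Other alternatives were the pseudocount, the filters, the ratio window, quantile or median-of-ratios scaling, a replicate block and leaving out libraries.

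Whole reads were sought as the smallest whole numbers matching every value above 0 after scaling by relative depth, with a tolerance of 0.002 to 0.05 of a read and an expected rate of false matches up to 0.001. They were found for 32853 of 51808 models above 0 in 2 or more libraries (63.4%), after 439 models with under 0.005 FPKM per read had been set aside. That minimum, and alternatives without models under 100 reads, were chosen after the values had been seen. The procedures were tested on simulated data. Whole reads were recovered for 98.9% of 3000 simulated models, against 63.4% of the real ones. The simulated models thus differed from the real ones, and their error rates need not hold for the real values.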

Additional observations from a re-analysis of the deposited data

How the results depend on the processing

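The choice of models moved under a pseudocount of 0.1 (127 of 200 kept) or 10 (121) and under median-of-ratios scaling (119); leaving out 1 library kept 180 to 189. With all 6 libraries, the number called lower in fiber went from 199 to between 174 and 199 in FO and between 175 and 199 in FL. The lowest values came from the study's rule, by which 24.3% of all tested models were lower in FO and 19% in FL. In the main fit these shares were 33.5% and 25.3%. The choice used both contrasts, so nothing is read from these counts. OL calls rose from 0 to 21 (quantile normalization) and 47 (median-of-ratios scaling), all lower in ovule, where 20% and 22.3% of all tested models were lower, and were 0 to 3 without 1 library. The median FO change of -4.05 became -5.23 with a pseudocount of 0.1 and -3.62 with either scaling, and was -4.10 to -3.97 without 1 library. The median FL change of -4.01 became -5.26 with a pseudocount of 0.1 and -4.27 with median-of-ratios scaling, and was -4.08 to -3.95 without 1 library. The median OL change of -0.01 became -0.35 (quantile normalization) and -0.66 (median-of-ratios scaling), and was -0.03 to 0.01 without 1 library. Where 1 library of a tissue remained, its spread was taken from the other tissues. The cause of these shifts was not tested. Without the 21 models under 100 reads, an alternative chosen after seeing the data, 179 of 179 were called lower in FO and in FL. Of all tested models, 33.5% were called lower in FO and 25.3% in FL.

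Deviations of same-numbered libraries correlated at -0.0562 (leaf and ovule), -0.0589 (leaf and fiber) and 0.04996 (ovule and fiber) across models. With 2 libraries per tissue, these values cannot show whether same-numbered libraries were paired by plant or harvest. With the replicate block, 194 models were called lower in FO, 194 in FL and 0 in OL. Of all tested models, 33.3% were then lower in FO and 25.2% in FL, and in OL 15.6% were lower and 31% higher. Of 374 values of the 17 named models under alternatives, 358 kept their call, 15 lost it and 1 gained it, and 0 changed sign; the changes were in Cotton_A_25760 and Cotton_A_19962, with 83 and 24 reads.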

Other observations

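The leaf-ovule models Cotton_A_32031 and Cotton_A_16753 shared 3 of 6 values. Both were at 136.8 FPKM in ovule replicate 2, 0 in fiber replicate 1 and 4.04 FPKM in fiber replicate 2, and 1 read was worth 3.89 FPKM in fiber replicate 1 for each. They differed in the other 3 libraries, in leaf with 132.5 and 96.2 FPKM in the first and 93.9 and 106.9 FPKM in the second and in ovule replicate 1 with 71.8 and 94.2 FPKM. Each had 85 recovered reads. Whether their sequences are alike could not be read from the table. In the order of the table, 0 of the 200 lay next to another member, 4 lay within 3 rows of one and 22 within 10 rows. The 4 were Cotton_A_04924 with Cotton_A_04927 and Cotton_A_16830 with Cotton_A_16832. These counts were not compared with those of other models, and nothing is read from them.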
